A study of Arabidopsis thaliana with 3 samples.

Results

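The regions described are stretches of the Arabidopsis thaliana genome that gained or lost DNA methylation, that carry 24-nt small RNAs, and for which the deposited annotation lists a gene but no repeat. Regions of all 6 methylation classes were pooled, identical coordinates were taken as 1 region, and a region was kept when none of its entries listed a repeat. This left 268 of 4481 distinct regions (5.98%), and the other 4213 list a repeat. The rule used the annotation only, not the small RNA levels. Small RNA sequencing of total RNA was done on 10-day-old seedlings grown in vitro in liquid MS medium, with 1 library each from the mutants ddb2-3 (insertion DsLoxHs195_05H) and nrpd1a (insertion Salk_583051) and from WT, the Col accession. The question was how 24-nt small RNA levels at these gene regions differed from WT in each mutant. With 1 library per genotype no genotype could be tested, so differences are given by size and their intervals cover counting error only.

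Most 24-nt small RNAs of plants are short interfering RNAs (siRNAs). RNA polymerase IV, whose largest subunit NRPD1 is the gene disrupted in nrpd1a, starts their synthesis, and they guide DNA methylation to matching sequence in a pathway best known for silencing transposons. Cytosines are methylated in the CG, CHG and CHH contexts, where H is any base but G. DDB2 recognises damaged DNA in genome repair. Gene bodies often carry CG methylation without such siRNAs.

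The following reference sequences, from the RefSeq TAIR10.1 assembly and all given on the plus strand, show regions on which the results below turn. The first pair are the coding exons with the highest and the lowest ddb2-3 to WT ratio. They hold no 24-base word that recurs in the nuclear genome and so have no capitals.
LCR26, chr4:14432740-14432900: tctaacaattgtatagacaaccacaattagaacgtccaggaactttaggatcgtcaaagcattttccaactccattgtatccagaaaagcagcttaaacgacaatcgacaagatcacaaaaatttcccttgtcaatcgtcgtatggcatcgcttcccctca
AT4G16195, chr4:9173301-9173600: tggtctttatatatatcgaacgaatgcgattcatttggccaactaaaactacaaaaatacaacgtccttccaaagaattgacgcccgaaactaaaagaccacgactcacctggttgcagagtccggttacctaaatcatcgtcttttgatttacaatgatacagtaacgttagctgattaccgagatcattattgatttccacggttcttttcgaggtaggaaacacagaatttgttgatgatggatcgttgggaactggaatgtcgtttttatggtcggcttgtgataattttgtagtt
The next pair lie in pentatricopeptide repeat genes of chromosome 1, and capitals mark bases inside 24-base words shared with another of the 268 regions.
AT1G63080, chr1:23389801-23389900: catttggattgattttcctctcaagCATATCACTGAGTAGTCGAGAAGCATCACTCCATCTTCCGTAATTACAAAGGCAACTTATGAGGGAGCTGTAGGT
AT1G63130, chr1:23413701-23413800: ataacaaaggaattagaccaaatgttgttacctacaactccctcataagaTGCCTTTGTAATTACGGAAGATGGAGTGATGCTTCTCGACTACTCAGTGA
The next 3 had the highest nrpd1a levels of single genes. Capitals mark 24-base words also present in an organelle genome (AT2G07732), words with an exact inverted copy within 5 kb (AT3G44580) and words that recur in the nuclear genome (AT1G43820, a tRNA-Asp gene).
AT2G07732, chr2:3468501-3468600: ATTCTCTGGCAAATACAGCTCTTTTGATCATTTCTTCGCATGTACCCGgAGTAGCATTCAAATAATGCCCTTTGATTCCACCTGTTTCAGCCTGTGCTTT
AT3G44580, chr3:16160801-16160900: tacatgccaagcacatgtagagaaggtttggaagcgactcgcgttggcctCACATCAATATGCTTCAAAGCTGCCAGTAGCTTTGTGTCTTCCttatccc
AT1G43820, chr1:16585704-16585776: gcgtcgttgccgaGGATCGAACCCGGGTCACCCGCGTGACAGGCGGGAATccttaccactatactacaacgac
The last pair are introns of high level. Capitals mark runs of at least 4 GA or CT units in ARF23 and recurring 24-base words in AT4G03580.
ARF23, chr1:16673501-16673700: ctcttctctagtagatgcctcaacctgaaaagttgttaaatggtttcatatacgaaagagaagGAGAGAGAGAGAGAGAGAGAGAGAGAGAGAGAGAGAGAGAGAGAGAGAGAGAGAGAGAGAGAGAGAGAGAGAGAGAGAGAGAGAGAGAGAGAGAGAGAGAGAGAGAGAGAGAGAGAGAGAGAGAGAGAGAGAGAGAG
AT4G03580, chr4:1598501-1598600: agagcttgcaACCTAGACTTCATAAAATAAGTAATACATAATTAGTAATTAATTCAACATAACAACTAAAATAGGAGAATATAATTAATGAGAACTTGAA

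The 268 regions were 54 to 600 bp wide, with a median of 100 bp, and lay in 238 genes, of which 26 held 2 or 3 regions. They listed protein-coding genes in 261 cases, other RNA genes in 5 and tRNA genes in 2. By the annotation category that held most of their bases, 163 were coding exons, 68 introns, 24 untranslated exons, 7 noncoding genes, 4 lay upstream and 2 downstream of a gene. Coding exons made up 60.8% of them, against 0.427% of the regions with a listed repeat. Within 3 Mb of a centromere lay 31.0%, against 61.5% of the regions with a listed repeat. The gene regions were also less repetitive. At least 90% of the 24-base words were unique in the nuclear genome in 47.0% of them, against 15.5%. The rule follows the deposited annotation and does not exclude repeat sequence: 17 regions overlapped a region that lists a repeat, among them 165 of the 200 bp in ARF23 and the whole of the tRNA-Asp gene AT1G43820.

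Summed over all 268 regions there were 31108 reads in ddb2-3, 803 in nrpd1a and 17993 in WT. The mean level was 13.9 RPM in ddb2-3, 2.18 RPM in nrpd1a and 11.4 RPM in WT, where RPM is reads scaled to 1000000 reads of the authors' normalising total. The median was 4.61 RPM in ddb2-3, 0 in nrpd1a and 4.06 RPM in WT. One read equals 0.120 RPM in ddb2-3, 0.727 RPM in nrpd1a and 0.169 RPM in WT, so the nrpd1a library resolves low levels least. A level of 0 allows up to 3 reads, or 0.359 RPM in ddb2-3 and 2.18 RPM in nrpd1a. Folds given as at least a value divide the WT level by this limit and leave out the counting error of WT. Every region had WT reads and reached 1 RPM in at least 1 library, 263 had ddb2-3 reads, and 53 had nrpd1a reads.

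Gene regions differed from WT in both directions in the ddb2-3 library. The cysteine-rich peptide gene LCR26, the F-box gene AT1G32140 and the glycine-rich protein gene AT2G15340 carried more siRNA than in WT. So did the region of the auxin response factor gene ARF23, which is mostly a GA repeat. The self-incompatibility S1 genes AT4G16195 and AT5G39493, the uncharacterized gene AT5G21125 and the noncoding RNA AT1G67105 carried less. Counting a region when it differed at least 2-fold on the log2(RPM + 1) scale, 28 regions in 25 genes were higher, against 5.22% of all regions, and 15 regions in 15 genes were lower, against 1.67%. With ddb2-3 divided by the median ddb2-3 to WT ratio over all regions, a shift of 0.20 on the log2 scale, the counts were 21 and 17, against 134 and 91 of all 4481 regions. AT1G63080, AT1G63400, AT1G74290, AT2G15470, AT2G16018, AT3G17400 and the CHH-hyper region of AT2G15340 were then short of 2-fold higher, and CYP71B32 and AT5G39480 were past 2-fold lower. In all, 154 gene regions were above and 114 below WT, against 2841 above and 1640 below of all 4481 regions. An exact binomial test on the recovered reads of these libraries, with Benjamini-Hochberg adjustment over all regions, called 48 higher, against 19.3%, and 24 lower, against 7.03%. Of the regions called by size, 27 of the 28 and 14 of the 15 were among them. With this test the share of gene regions called higher was below that over all regions, unlike with the 2-fold rule. The share called lower was above that over all regions. The summed level in ddb2-3 was 0.29 higher on the log2 scale (95% interval 0.27 to 0.32), or 0.094 relative to the median region. The median log2 ratio of the gene regions was 0.11, against 0.17 over all regions, and it turned to -0.051 relative to the median region.

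The largest difference lay in LCR26 (AT4G29290), a gene for a low-molecular-weight cysteine-rich protein, a class of small secreted peptides related to defensins. Its CHG-hyper region, printed above, had 23.8 RPM in ddb2-3, no read in nrpd1a and 0.845 RPM, or 5 reads, in WT. The ratio of ddb2-3 to WT was 28.2 (11.9 to 87.8). All of its 24-base words are unique. LCR25, a neighbour of the same family whose CHH-hyper region lies 3400 bp away, had 10.5 RPM in ddb2-3, 0.727 RPM in nrpd1a and 8.96 RPM in WT, so the libraries of ddb2-3 and WT were far apart at LCR26 and close at LCR25.

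A further 3 of the highest ratios also rested on regions with almost no WT siRNA. The F-box gene AT1G32140 had 8.87 RPM in ddb2-3, no read in nrpd1a and 1.01 RPM in WT, a ddb2-3 to WT ratio of 8.74 (3.83 to 24.6). F-box proteins are the subunits of ubiquitin ligases that choose the protein to be degraded. AT4G13992, for a cysteine/histidine-rich C1 domain protein, had 5.63 RPM in ddb2-3, no read in nrpd1a and 0.845 RPM in WT. AT2G02490, for an uncharacterized protein, had 2.40 RPM in ddb2-3, no read in nrpd1a and 1 read in WT, with a ratio of 14.2 that spans 2.27 to 587. Their WT levels lay under the nrpd1a floor of 2.18 RPM, so the lack of nrpd1a reads says little about them. With 1 library per genotype, it cannot be told whether ddb2-3 or WT departs.

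Other regions were higher from a larger WT level. In AT3G19880 and the CHG-hyper region of AT3G56210 this level lay under the nrpd1a floor of 2.18 RPM. Their nrpd1a values therefore say little. ARF23, for an auxin response factor (a family of transcription factors that act on auxin-responsive genes), had 220 RPM in ddb2-3, no read in nrpd1a and 45.5 RPM in WT, a ddb2-3 to WT ratio of 4.83 (4.25 to 5.51). Its region is an intron that is mostly a GA repeat and overlaps a listed repeat. Its 24-base words have a median of 3993 copies in the nuclear genome, and 30.5% are unique. How reads that match several places were handled is not given, so its reads cannot be assigned to this gene alone. The 3 overlapping regions of AT2G15340, for a glycine-rich protein, had 22.4, 21.8 and 10.5 RPM in ddb2-3 in their CHG-hyper, CG-hyper and CHH-hyper entries. Each had 0.727 RPM in nrpd1a, and they had 5.41, 5.41 and 4.40 RPM in WT. They share reads, so they are 1 observation, higher in ddb2-3 at every width. AT1G65990, for a peroxiredoxin-related protein, had 21.9 RPM in ddb2-3, no read in nrpd1a and 5.41 RPM in WT. AT1G17150, a pectin lyase-like gene, had 22.2 RPM in ddb2-3, 0.727 RPM in nrpd1a and 7.44 RPM in WT. Pectin lyase-like proteins include enzymes that act on cell wall pectin. F-box gene AT3G19880 had 7.43 RPM in ddb2-3, no read in nrpd1a and 2.03 RPM in WT. AT3G56210, for an ARM repeat protein, had CHG-hyper and CHH-hyper regions side by side, at 5.75 and 22.3 RPM in ddb2-3, 0.727 RPM and no read in nrpd1a and 1.52 and 9.13 RPM in WT. Its CG-hyper region, 100 bp away, had 1.08 RPM in ddb2-3, no read in nrpd1a and 1.35 RPM in WT, so the difference did not extend over all 3 regions.

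The remaining higher regions were spread over several gene groups. The CHH-hypo region of AT4G03580 had 43.0 RPM in ddb2-3, no read in nrpd1a and 17.6 RPM in WT, a ddb2-3 to WT ratio of 2.45 (1.96 to 3.07), and 95 of its 100 bp overlap a listed repeat. AT3G44006 had 19.2 RPM in ddb2-3, no read in nrpd1a and 7.27 RPM in WT. HR4, a homolog of the RPW8 mildew resistance genes, had 3.59 RPM in ddb2-3, no read in nrpd1a and 0.845 RPM in WT. AT3G11680, for an aluminium-activated malate transporter, had 7.43 RPM in ddb2-3, no read in nrpd1a and 2.71 RPM in WT. AT2G16018, AT5G32590, AT2G15470 and a CHG-hypo region of AT3G42870 were the others besides those named below, with 2.88 to 25.8 RPM in ddb2-3, no read in nrpd1a and 0.507 to 11.0 RPM in WT.

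**Figure D1:**
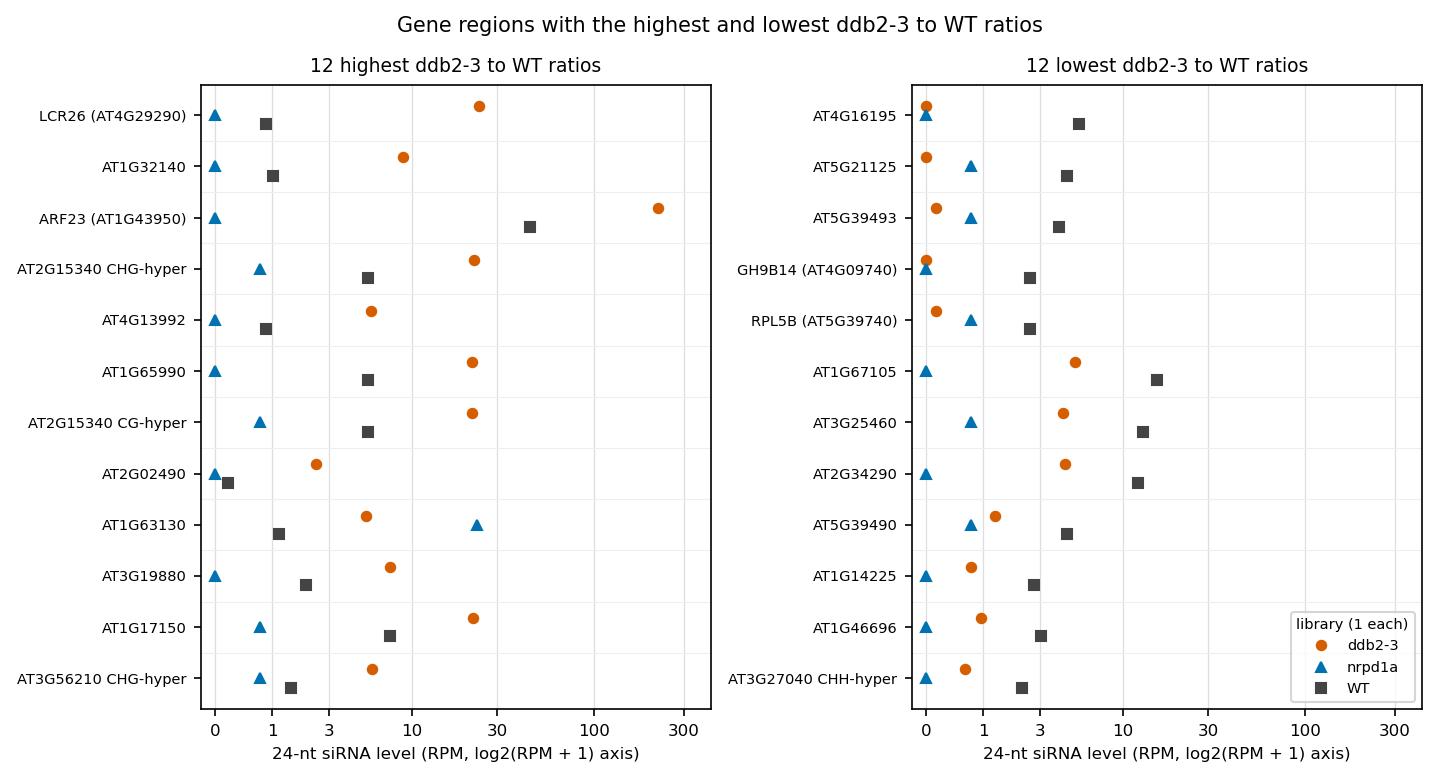
Levels of the 12 gene regions highest and the 12 lowest in ddb2-3 relative to WT, among those of at least 2 RPM in either library, in RPM on a log2(RPM + 1) axis, 1 point per library. LCR26 stands at 23.8 RPM in ddb2-3 and 0.845 RPM in WT, AT4G16195 at 0 in ddb2-3 and 5.41 RPM in WT, and AT1G63130 is the region of the left panel whose nrpd1a point lies above the other libraries.

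The regions of lowest ratio held little nrpd1a siRNA, as did most gene regions, of which 215 of 268 had no nrpd1a read. AT4G16195, of the plant self-incompatibility S1 family of small secreted proteins, had no read in ddb2-3, no read in nrpd1a and 5.41 RPM, or 32 reads, in WT. It was at least 15.1-fold lower in ddb2-3 by the limit of 3 reads. AT4G16215, whose region lies 5642 bp away, had 51.5 RPM in ddb2-3, 0.727 RPM in nrpd1a and 33.1 RPM in WT, so this neighbour lay on the other side of WT. AT5G21125, for an uncharacterized protein, had no read in ddb2-3, 0.727 RPM in nrpd1a and 4.57 RPM in WT, at least 12.7-fold lower in ddb2-3. GH9B14, for a glycosyl hydrolase, had no read in ddb2-3 or nrpd1a and 2.54 RPM in WT, at least 7.06-fold lower in ddb2-3. Its relative GH9B15 was among the higher regions, at 8.63 RPM in ddb2-3, no read in nrpd1a and 2.71 RPM in WT. RPL5B, for a ribosomal protein, had 1 read in ddb2-3, 1 read in nrpd1a and 2.54 RPM in WT, a ddb2-3 to WT ratio of 0.0472 (0.00112 to 0.307), and 57% of its words are unique.

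Neighbouring regions on chromosome 5 lay below WT in ddb2-3. The F-box genes AT5G39480 and AT5G39490 and the S1 gene AT5G39493 have gaps of 3900 and 3800 bp between their regions, all of the CHG-hypo class. AT5G39480 had 15 reads in ddb2-3, 1 in nrpd1a and 26 in WT, a ddb2-3 to WT ratio of 0.409. AT5G39490 had 1.32 RPM in ddb2-3, 0.727 RPM in nrpd1a and 4.57 RPM in WT. AT5G39493, whose region is in the CG-hypo class too, had 0.120 RPM in ddb2-3, 0.727 RPM in nrpd1a and 4.06 RPM in WT. In each of the 3, ddb2-3 lay below WT and nrpd1a held 1 read. AT5G39480 stood just short of 2-fold, at -0.95 on the log2 scale, and the F-box pair share 24-base words.

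Lower regions with more WT siRNA belonged to the CHG-hypo class. The noncoding RNA AT1G67105 had 5.15 RPM in ddb2-3, no read in nrpd1a and 15.6 RPM in WT, 3.02-fold lower in ddb2-3 (2.08 to 4.44). The F-box gene AT3G25460 had 4.31 RPM in ddb2-3, 0.727 RPM in nrpd1a and 13.0 RPM in WT, 3.02-fold lower (2.01 to 4.62). The protein kinase gene AT2G34290 had 4.43 RPM in ddb2-3, no read in nrpd1a and 12.2 RPM in WT, 2.75-fold lower (1.82 to 4.20). These were the only 3 lower regions of at least 10 RPM in WT. The other lower regions were AT1G14225, AT1G46696, AT3G27040, AT4G00580, AT1G73630 and EIF3C, with 0 to 0.959 RPM in ddb2-3 and 1.01 to 3.04 RPM in WT. At the 2-fold boundary, AT1G63400 was just inside at 2.04 RPM in ddb2-3 and 0.507 RPM in WT, and a CHG-hypo region of the sulfate transporter gene SULTR1;1 (AT4G08620) just outside at 8.75 and 3.89 RPM. On the lower side AT3G27040 was just inside at 0.599 RPM in ddb2-3 and 2.20 RPM in WT, and CYP71B32 (AT3G53305) just outside at 0.359 and 1.69 RPM.

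By methylation class, CHG-hyper gene regions had 12 higher and 0 lower in ddb2-3 of 66, against 7.91% and 0.233% of all CHG-hyper regions. Their level in all was 0.56 above WT on the log2 scale (0.49 to 0.63), and 0.36 above it after division by the median ratio. LCR26, AT1G32140, AT4G13992, AT1G65990, AT3G19880, AT1G17150, AT2G15340, AT3G56210, GH9B15, AT1G74290, SULTR1;1 and HR4 are the 12. CHG-hypo gene regions had 5 higher and 9 lower of 90, against 5.51% and 4.8%, and a sum of 0.11 (0.044 to 0.17), which turned to -0.092 relative to the median region. CHH-hyper regions had 5 higher and 2 lower of 69, against 3.59% and 0.512%, and a sum of 0.41 (0.36 to 0.45). ARF23, at 220 RPM in ddb2-3 and 45.5 RPM in WT, is among them, where all CHH-hyper gene regions held 1499 and 1130 RPM. Their median log2 ratio was 0.11, against 0.17 over all regions, and turned to -0.077 relative to the median region. CHH-hypo regions had 2 higher and 0 lower of 27, against 3.5% and 1.75%, and a sum of 0.067 (0.016 to 0.12), which turned to -0.13 relative to the median region and to -0.072 without AT3G44580.

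The CG classes were small. Of 8 CG-hyper gene regions 3 were higher in ddb2-3 (AT2G15340, AT1G63130 and AT1G63080) and 1 was lower (EIF3C, for a translation initiation factor), against 24.2% and 3.03% of all CG-hyper regions. The rest were AT2G07785, AT4G03570, BARS1 and the CG-hyper region of AT3G56210, with 1.08 to 3.12 RPM in ddb2-3, no read in nrpd1a and 1.18 to 2.54 RPM in WT. Of 13 CG-hypo gene regions 1 was higher (AT1G63400) and 5 were lower (AT4G16195, AT5G39493, GH9B14, RPL5B and AT1G73630), against 4.17% and 45.8%, so the share of lower regions was no larger than among all CG-hypo regions. AT1G73630, for an EF hand calcium-binding protein, had 0.240 RPM in ddb2-3, no read in nrpd1a and 1.52 RPM in WT over its 100 bp CG-hypo region. The CHG-hypo region of 300 bp that contains it had 7.79 RPM in ddb2-3, no read in nrpd1a and 6.93 RPM in WT. The other 7 CG-hypo regions lay in CAT3, AT3G19560, RLP40, AT3G42870, AT4G13575, G2484-1 and UBQ4. The highest of them was AT3G42870, annotated for a heat shock protein, at 13.1 RPM in ddb2-3, 0.727 RPM in nrpd1a and 8.62 RPM in WT, and the CG-hypo sum of -0.48 (-0.76 to -0.21) was -1.09 without it.

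**Figure D2:**
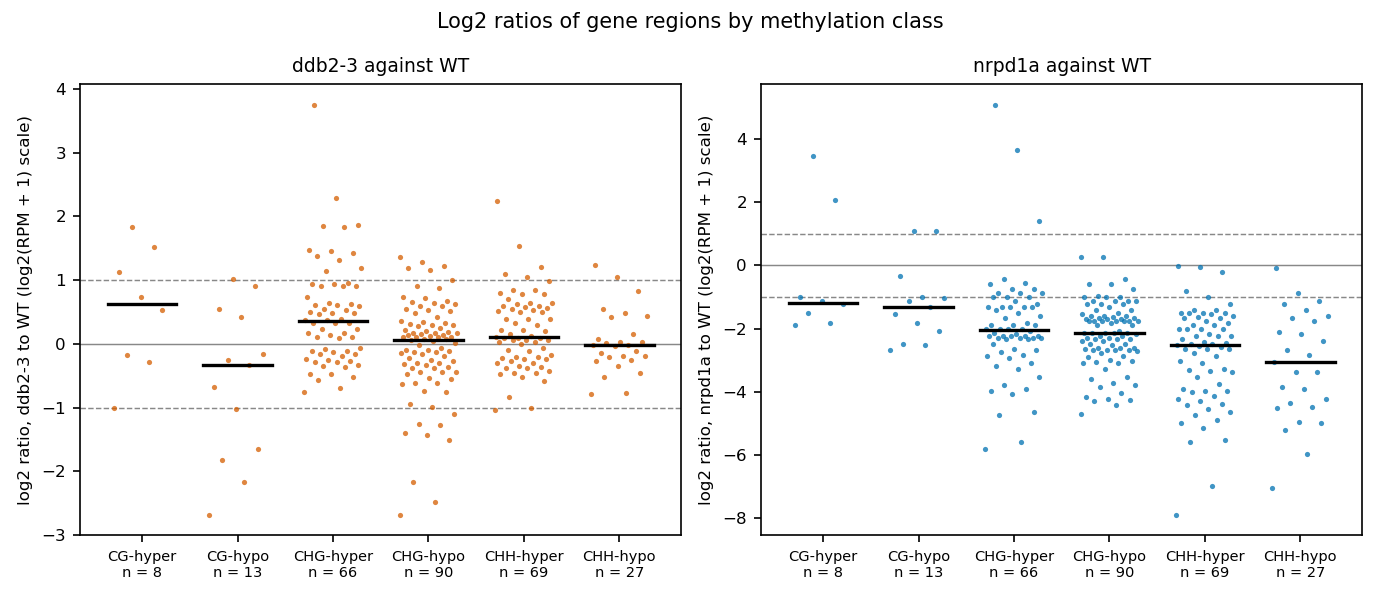
Log2 ratios to WT of each gene region on the log2(RPM + 1) scale, by methylation class, in ddb2-3 (left) and nrpd1a (right). Each point is 1 region, black bars are medians and dashed lines mark 2-fold; in ddb2-3 the CHG-hyper class has 12 points above and none below the dashed lines, and in nrpd1a 239 of 268 regions lie below the lower one.

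Gene families were read from the annotated products, and members of a family often differed among themselves in ddb2-3. Over all regions, 5.22% were higher and 1.67% lower. The 20 F-box regions had 3 higher and 2 lower, with 9 above and 11 below WT and a median of -0.078, against 0.17 over all regions. AT3G17400 was the most abundant higher one, at 72.5 RPM in ddb2-3, no read in nrpd1a and 34.3 RPM in WT in its CHH-hyper region. Its CHG-hypo region, 100 bp away, had 4.31 RPM in ddb2-3, no read in nrpd1a and 4.57 RPM in WT. The list of small secreted cysteine-rich or glycine-rich proteins had 4 higher and 2 lower of 16, and a median of 0.19. The higher ones are LCR26 and the 3 overlapping regions of AT2G15340, so they come from 2 genes, and the lower ones AT4G16195 and AT5G39493. The other 5 S1 regions, in AT3G26870, AT3G27329, AT3G55677 and AT3G55254, had log2 ratios of -0.47 to 0.42, so the low S1 values came from 2 of 6 genes. Defensin-like gene AT5G08315 had 16.1 RPM in ddb2-3, no read in nrpd1a and 8.96 RPM in WT, short of 2-fold.

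Metabolic enzymes had 2 higher and 1 lower of 28, close to the shares of 5.22% and 1.67% over all regions, with a median of 0.10 that turned to -0.051 relative to the median region. The higher ones were GH9B15 and the hydrolase gene AT1G74290, at 54.0 RPM in ddb2-3, no read in nrpd1a and 23.8 RPM in WT. Of the 100 bp in AT1G74290, 96 overlap a region that lists a repeat, and 28.6% of its words are unique. Proteins of unknown function had 4 higher and 2 lower of 54, also close to those shares, and a median of 0.15 that turned to -0.0063 relative to the median region. The next lists hold only genes matched by annotated name, so ARF23, HR4 and the called F-box genes fall outside them. The listed disease resistance and receptor-like genes (8 regions), transcription and chromatin genes (6) and ubiquitin and proteolysis genes (11) had none past 2-fold in ddb2-3. Nor had the listed genes for photosynthetic or respiratory proteins (4: AT2G07732, AT2G07695, AT2G07785 and LHCA2). Among the listed transcription and chromatin genes, TT8, a regulator of seed coat pigments, had 2.88 RPM in ddb2-3, no read in nrpd1a and 5.58 RPM in WT. The homeobox gene WOX8 had 5.99 RPM in ddb2-3, no read in nrpd1a and 4.73 RPM in WT. The 7 noncoding RNA regions had 1 lower, AT1G67105, and a median of -0.45.

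Families picked out after their values were seen are given as values only. The extensins and other hydroxyproline-rich proteins, structural proteins of the cell wall, had 13 regions in 10 genes, none past 2-fold, between -0.83 and 0.83, and most of these regions share 24-base words with another. The 4 regions in pentatricopeptide repeat genes, whose proteins bind organelle RNA, were all above WT in ddb2-3, and 3 of them past 2-fold, of which AT1G63130 alone stayed so after division by the median ratio. Among the 4 auxin response factors, ARF23 alone was past 2-fold. ARF22 had 53.9 RPM in ddb2-3, no read in nrpd1a and 62.4 RPM in WT, ARF20 had 3.00, no read and 3.89 RPM in the same order, and ARF13 had 2.64, no read and 2.20 RPM. The 5 ECA1 gametogenesis genes of the DUF784 group had log2 ratios of -0.23 to 0.91. The 6 pectin lyase-like regions had 2 higher, AT1G17150 and 1 of 3 in AT2G15470, and the 4 germin-like and cupin regions none past 2-fold. The 10 regions whose product is transposon-derived, such as zinc knuckle proteins and Ta11-like retrotransposons, had none past 2-fold and a sum of -0.37 (-0.50 to -0.23), which was -0.14 without AT3G09510.

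**Figure D3:**
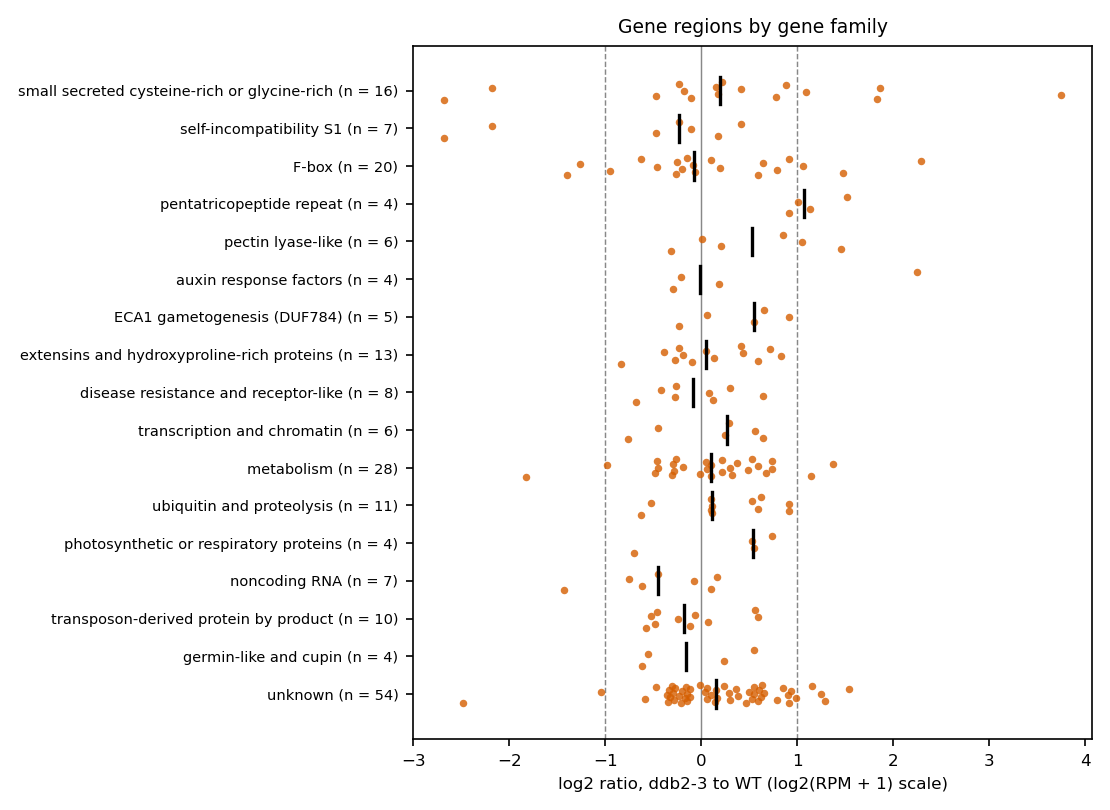
Log2 ratios of ddb2-3 to WT (log2(RPM + 1) scale) of gene regions by family. Each point is 1 region, black bars are family medians and dashed lines mark 2-fold; a region can stand in more than 1 family. The S1 and cysteine-rich rows spread from -2.68 (AT4G16195) to 3.75 (LCR26), while all 13 extensin points lie within 2-fold of WT.

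Where a gene held several regions, they did not always lie on the same side of WT in ddb2-3. Of the 26 such genes, 16 had all regions on the same side and 10 on both. Of the 11 genes with a called region, AT2G15340 was the one with every region called. SULTR1;1, for a root sulfate transporter, had 11.7 RPM in ddb2-3, no read in nrpd1a and 4.57 RPM in WT in its CHG-hyper region, and 8.75, no read and 3.89 RPM in its CHG-hypo region, so regions of opposite methylation class were both above WT. In AT4G00580, for a COP1-interacting protein-like protein, 1 CHG-hypo region had 6.47 RPM in ddb2-3, no read in nrpd1a and 4.23 RPM in WT. The other, 200 bp away, had no read in ddb2-3 or nrpd1a and 1.86 RPM in WT. HDG9, a homeodomain gene, had overlapping CHG-hypo and CHH-hypo regions at 2.04 and 1.68 RPM in ddb2-3, no read in nrpd1a and 4.06 and 3.55 RPM in WT.

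By gene context, coding exons had 21 higher and 10 lower in ddb2-3 of 163, and introns 5 higher and 1 lower of 68, against 5.22% and 1.67% of all regions, to which the intron shares are close. The 4 regions upstream of a gene start were all below WT, 2 of them past 2-fold. The 83 regions near centromeres had a summed log2 ratio of 0.54 (0.49 to 0.58) and the 185 of the arms 0.15 (0.12 to 0.19), which turned to -0.045 relative to the median region. ARF23, at 220 RPM in ddb2-3 and 45.5 RPM in WT, is among the regions near centromeres. The median log2 ratios lay closer together than the sums, at 0.19 near centromeres and 0.086 on the arms. Regions with a listed repeat differed in the same direction. Their sums were 0.29 near centromeres and -0.061 on the arms, and their medians 0.31 and -0.0084. The 126 gene regions of at least 90% unique words had a sum of 0.38 (0.33 to 0.43), with 15 higher and 12 lower, and the 142 others 0.26 (0.23 to 0.29), with 13 and 3. Regions that overlapped no listed repeat had a sum of 0.25 (0.22 to 0.28). A GA repeat, searched as GAGAGAGAGAGA or its reverse complement TCTCTCTCTCTC, was found in 3 gene regions (1.12%), against 0.558% of all regions. They are ARF23, ARF22 and AT4G02910, and the last had 10.4 RPM in ddb2-3, no read in nrpd1a and 7.10 RPM in WT. ARF23 was past 2-fold and the others were not.

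The nrpd1a library held almost no siRNA over most gene regions, but a few kept or exceeded their WT level. Both comparisons share the WT library. By the 2-fold rule 239 of 268 gene regions were lower, against 92.9% of all regions, and 7 were higher, against 0.246%. The count test called 158 lower, against 71.3%, and 5 higher, against 0.246%. No nrpd1a read fell in 215 regions (80.2%), 1 read in 33 and 2 reads in 7. The 5 regions of highest nrpd1a level held 665 of the 803 reads. The summed nrpd1a level was 19.2% of WT (17.8 to 20.6), and 3.58% (3.01 to 4.23) without those 5, which held 7.98% of the WT level. Over regions with a listed repeat it was 2.96% (2.86 to 3.06). With levels under 3 reads set to the floor of 3 reads, 100 gene regions were lower by 2-fold. Of 32 regions whose WT level was high enough to tell, 28 were under 10% of WT in nrpd1a, and the exceptions were both regions of AT3G44580, AT1G66290 and AT2G18320.

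With no read in most regions, the size of loss that could be shown in nrpd1a was set by the WT level, so the values that follow are for the most abundant regions and do not rank the losses. AT4G03580, for an uncharacterized protein, had 308 RPM in ddb2-3, no read in nrpd1a and 236 RPM in WT, the highest WT level of all 268, and was at least 108-fold lower in nrpd1a by the limit of 3 reads. Its intron region, printed above, is mostly recurring words. AT2G26800, for an aldolase-type enzyme, had 232 RPM in ddb2-3, 1 read in nrpd1a and 228 RPM in WT. AT4G16640, for a matrixin (a metalloprotease), had 107 RPM in ddb2-3, no read in nrpd1a and 126 RPM in WT, at least 57.9-fold lower in nrpd1a. ARF22 was at least 28.6-fold lower, AT1G48953 at least 25.3-fold, the S1 gene AT3G27329 at least 21.7-fold, AT5G27606 at least 21.6-fold, ARF23 at least 20.9-fold and AT3G17400 at least 15.7-fold. AT4G28570, for a fatty alcohol dehydrogenase, and AHG1, for a protein phosphatase of abscisic acid signalling, had 54.6 and 41.0 RPM in ddb2-3, 1 read each in nrpd1a and 62.6 and 52.6 RPM in WT. FMO GS-OX2, for a glucosinolate S-oxygenase, had 52.4 RPM in ddb2-3, 3 reads in nrpd1a and 50.4 RPM in WT. Of these regions, AT3G17400 and ARF23 were past 2-fold in ddb2-3 and the others lay between 0.779 and 1.31 times their WT level.

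**Figure D4:**
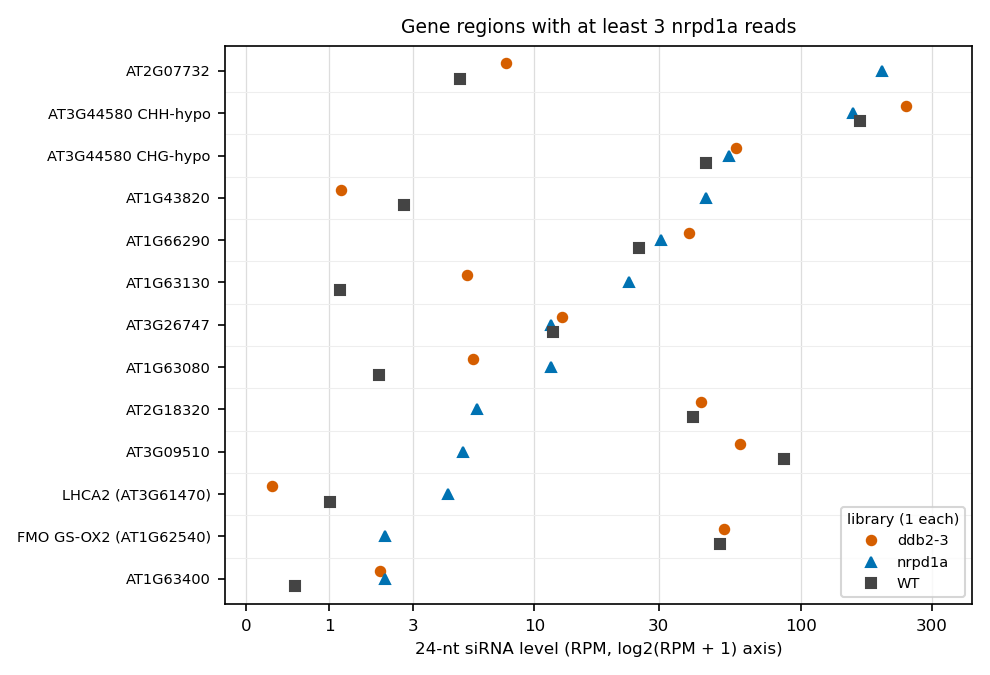
Levels of the 13 gene regions with at least 3 nrpd1a reads, in RPM on a log2(RPM + 1) axis, 1 point per library. AT2G07732, AT1G43820, AT1G63130, AT1G63080, LHCA2 and AT1G63400 have their nrpd1a point to the right of the ddb2-3 and WT points, and both AT3G44580 regions have the 3 points close together.

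The highest nrpd1a level was that of AT2G07732, a nuclear gene annotated as rubisco large chain. Rubisco, the carbon-fixing enzyme, has its large chain encoded in the chloroplast. It had 7.67 RPM in ddb2-3, 198 RPM in nrpd1a and 4.90 RPM in WT, an nrpd1a to WT ratio of 40.3 (27.4 to 61.3). All of its 24-base words occur once in the nuclear genome, and 68.8% also occur in an organelle genome. Another 4 gene regions have every word in an organelle genome. AT2G07695, AT2G07785 and AT2G07722, also near the centromere of chromosome 2, had 3.12 to 3.47 RPM in ddb2-3, no read in nrpd1a and 1.69 to 3.04 RPM in WT, and an intron of UBQ13 had 2.64, 1.45 and 1.52 RPM in the same order. AT2G07732 was thus the only 1 of the 5 past 2-fold above WT in nrpd1a. The part that reads from organelle RNA have in these levels was not tested. LHCA2, a nuclear gene for a light-harvesting protein of photosystem I, had 0.240 RPM in ddb2-3, 4.36 RPM in nrpd1a and 1.01 RPM in WT. The CG-hypo region of UBQ4, for a polyubiquitin, had 1.20 RPM in ddb2-3, 1.45 RPM in nrpd1a and 1 read in WT, and was the seventh past 2-fold above WT in nrpd1a.

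The tRNA genes differed from each other. The tRNA-Asp gene AT1G43820 had 1.20 RPM in ddb2-3, 45.1 RPM in nrpd1a and 2.71 RPM in WT, an nrpd1a to WT ratio of 16.7 (9.49 to 30.9). The tRNA-Val gene AT3G26747 had 12.8 RPM in ddb2-3, 11.6 RPM in nrpd1a and 11.8 RPM in WT, with a ratio of 0.982 (0.532 to 1.71). Neither was past 2-fold in ddb2-3. Transfer RNA genes occur in many copies, and 72% of the words of AT1G43820 and none of AT3G26747 are unique in the nuclear genome.

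Regions in pentatricopeptide repeat genes of chromosome 1 were higher than WT in both mutants. AT1G63130 had 5.27 RPM in ddb2-3, 23.3 RPM in nrpd1a and 1.18 RPM in WT. AT1G63080 had 5.63 RPM in ddb2-3, 11.6 RPM in nrpd1a and 2.03 RPM in WT. AT1G63400 had 2.04 RPM in ddb2-3, 2.18 RPM in nrpd1a and 0.507 RPM in WT. The order nrpd1a, ddb2-3, WT from high to low held in all 3, although 3 nrpd1a reads and 3 WT reads carry the last. They share 24-base words, capitals in the printed pair, so a read can belong to several of them and they are not independent. Genes of this group are known as sources of secondary siRNAs that follow cleavage by microRNAs. Whether the 24-nt reads counted here arise in that way was not tested. The fourth gene of the family list, AT2G27229, shares no word with them and had 13.3 RPM in ddb2-3, no read in nrpd1a and 6.59 RPM in WT. Ratios in nrpd1a hold on the RPM scale only, since the sources used here do not say which reads the normalising total counts.

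AT3G44580 and AT1G66290 had nrpd1a levels close to those of WT. The CHH-hypo region of AT3G44580, an uncharacterized protein, had 241 RPM in ddb2-3, 155 RPM in nrpd1a and 165 RPM in WT, and the nrpd1a to WT ratio was 0.944 (0.81 to 1.10). Its CHG-hypo region had 58.1 RPM in ddb2-3, 54.5 RPM in nrpd1a and 45.0 RPM in WT. These regions have inverted copies of 98 and 100 bases, 93.9% and 94.0% identical, that lie 1695 and 1895 bp away. Inverted copies of at least 80 bases within 5 kb were found in 6 gene regions. The other 4, in AT2G02835, AT2G02840, AT2G06904 and HRGP1, had 2.88 to 13.4 RPM in ddb2-3, 0 to 1 read in nrpd1a and 2.54 to 10.5 RPM in WT, so regions with an inverted copy differed in their nrpd1a level. AT1G66290, an F-box gene, had 38.7 RPM in ddb2-3, 30.5 RPM in nrpd1a and 25.4 RPM in WT, a ratio of 1.20 (0.833 to 1.70). It has only unique words and no such inverted copy. A partial level was kept in AT2G18320, an F-box-associated gene, at 43.1 RPM in ddb2-3, 5.81 RPM in nrpd1a and 40.2 RPM in WT. AT3G09510, for a ribonuclease H-like protein, had 59.9, 5.09 and 86.6 RPM in the same order, under 10% of WT in nrpd1a.

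These few regions set the nrpd1a sums of the classes and contexts. CG-hyper gene regions had 215% (149 to 306) of their WT level in nrpd1a, and 80.3% without AT1G63130. CHG-hyper regions had 58.1% (51.8 to 65.1), and 12.8% without AT2G07732. CHG-hypo and CHH-hypo regions had 16.5% (13.7 to 19.7) and 18.9% (16.5 to 21.6), and 7.42% and 1.43% without their AT3G44580 region. Of 35.6 RPM in nrpd1a in CG-hyper regions, AT1G63130 held 23.3 and AT1G63080 11.6. Of 253 RPM in CHG-hyper regions, AT2G07732 held 198 and AT1G43820 45.1. Of 93.0 RPM in CHG-hypo regions, AT3G44580 held 54.5 and AT1G66290 30.5. What was left without the first of each pair thus lay mostly in the second. CG-hypo regions had 17.8% (8.04 to 34.5) on 9 reads. CHH-hyper regions had 2.70% (1.94 to 3.65), and 3.41% without AT4G03580, so the order of the CHH classes turned when single regions were left out. Introns kept 1.53% (0.972 to 2.30) and untranslated exons 0.805% (0.295 to 1.75), while coding exons, which hold AT2G07732 and AT3G44580, had 38.1% (35.2 to 41.1). Among families, the 28 metabolic enzymes kept 1.59% (0.687 to 3.15), the cysteine-rich or glycine-rich list 3.25% (1.40 to 6.42), ubiquitin and proteolysis genes 9.23% (5.02 to 15.6), F-box genes 22.8% (17.1 to 29.8), proteins of unknown function 23.5% (20.8 to 26.4) and noncoding RNAs 89.6% (69.4 to 114). Without the region of highest level the unknown proteins kept 8.00% and the noncoding RNAs 20.1%. The unknown proteins then still held the other AT3G44580 region, at 54.5 RPM in nrpd1a, and the noncoding RNAs the tRNA-Val gene AT3G26747. In the F-box genes, AT1G66290 held 30.5 of the 40.7 RPM in nrpd1a. The auxin response factors had no read.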

How the data were processed

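Levels of 24-nt small RNAs were taken from 6 tables per library, deposited by the authors as RPM, reads scaled to 1000000 of their normalising total, summed over regions of differential methylation from bisulfite sequencing, per the file headers. The submitters' processing notes name the TAIR10 build, bedtools, Bowtie and CASAVA 1.8.2. Values were whole multiples of 1 step per library within 0.1 read, and 100% of values came out as whole reads, for normalising totals of 8345930 reads in ddb2-3, 1376239 in nrpd1a and 5913669 in WT. How multiply matching reads were handled, and which genotypes define the methylation classes, is not given in the sources used here. The members and lists were chosen with earlier results of these data known. Per-region log2 ratios use a pseudocount of 1 RPM, which understates differences at low levels, and calls need 1 RPM or more in 1 or more libraries, and ratios of levels use none. Intervals are exact Clopper-Pearson intervals at 95% on recovered reads. They cover counting error only and treat reads as independent. Regions named are the 12 highest and 12 lowest ddb2-3 to WT ratios among those of at least 2 RPM in either library, the 10 highest nrpd1a levels, the 10 lowest nrpd1a to WT ratios, the 10 highest WT levels, all CG-class regions and family members. Others were chosen after their values were seen. Families come from RefSeq product names, and 3 listed genes are not in that annotation. Uniqueness counts 24-base words in the RefSeq TAIR10.1 assembly, whose chromosome lengths match. Inverted copies were found with blastn 2.17.0 at an E-value of 1e-05. Python 3.11.15, pandas 2.3.3, scipy 1.17.1 and statsmodels 0.14.6 were used, and ratios and tests were checked on simulated data.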

Additional observations from a re-analysis of the deposited data

How the results depend on the processing

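Of 75 alternatives, 42 kept the direction and stayed close to the value given, 26 moved it and 7 reversed it. The values by methylation class, those without regions that overlap a listed repeat and those without the 5 of highest nrpd1a level are alternatives chosen after seeing the data. No paired analysis was possible because each genotype has 1 library. The exact binomial count test called 48 gene regions higher and 24 lower in ddb2-3, and 158 lower in nrpd1a. Among the 126 gene regions of at least 90% unique words, 15 were higher in ddb2-3, and 1 was higher and 116 were lower in nrpd1a. Their ddb2-3 log2 sums were 0.38 in all, 1.76 (1.25 to 2.31) in the 2 CG-hyper regions left, 0.72 in CHG-hyper and 0.53 in CHH-hyper. Their nrpd1a log2 sums were -1.77 in all, -3.14 (-8.49 to -0.58) in those 2 CG-hyper regions, where the sum over all CG-hyper gene regions is 1.10, -4.27 in CG-hypo, 0.0020 in CHG-hyper, where that sum is -0.78, -3.09 in CHG-hypo and -7.30 in CHH-hypo. After division by the median ratio the ddb2-3 sums were 0.094 in all, 0.36 in CHG-hyper, 0.21 in CHH-hyper, -0.092 in CHG-hypo and -0.13 in CHH-hypo, and the median was -0.051. Without the region of highest summed level, the ddb2-3 sums were -1.09 in CG-hypo and -0.072 in CHH-hypo. The nrpd1a sums were then -2.75 in all, -0.32 in CG-hyper, -2.96 in CHG-hyper, -3.75 in CHG-hypo and -6.13 in CHH-hypo. Without the 5 highest in nrpd1a the nrpd1a sum was -4.80. The ddb2-3 sum was 0.23 over gene regions that overlap no other region and 0.25 over those that overlap no listed repeat. The ddb2-3 median was 0.23 among gene regions of at least 5 RPM. Where these values moved or turned, the cause was not tested. At 0.727 RPM per read, the nrpd1a library cannot tell a loss from a low level in most gene regions.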
